A study of Mus musculus with 30 samples.

Results

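Vincristine was set against cyclophosphamide in lumbar dorsal root ganglia (DRG) of mice on day 8, with 3 libraries of each drug, 6 of the 30 libraries of the series. The members were chosen by the label of treatment and day. A DRG is a cluster of sensory neurons beside the spinal cord, which are wrapped by satellite glia and share the ganglion with Schwann cells, blood vessels and macrophages. The lumbar ones serve the hindlimb. All animals were male, wild-type C57BL/6J mice, and ganglia L3 to L5 of both sides were taken after perfusion on day 8 in the vincristine group, the cyclophosphamide group and the saline group, which serves below as the common baseline of both drugs. Dose, schedule and age are not given in the labels, which also do not say whether a library is 1 animal or a pool, so that p-values measure only the spread between libraries.

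Vincristine is a vinca alkaloid that binds tubulin and blocks the growth of microtubules, and its dose is limited in patients by a sensory neuropathy. Cyclophosphamide is a prodrug that liver cytochromes activate to a DNA-crosslinking mustard, and it depletes dividing cells and white blood cells. Interferons bind receptors on the cell surface and switch on a large set of antiviral genes through a DNA element called the interferon-stimulated response element. Interferon gamma has a receptor of its own and is the stronger inducer of the immunity-related GTPases and of antigen presentation on MHC class I.

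Levels are given in TPM (transcripts per 1e+06), a unit that corrects for gene length. Log2 fold changes are differences of mean log2(TPM + 1), vincristine minus cyclophosphamide unless another pair is named, with their SE. The reads per library are not stated, so the depth behind the values is unknown. Protein-coding genes carried 64.3, 66.9 and 73.8% of the TPM in vincristine and 65.2, 65.1 and 68.7% in cyclophosphamide. Libraries of different drugs correlated at r = 0.9631 to 0.9716, a range that covers the values within vincristine (0.9656 to 0.9703) and within cyclophosphamide (0.9652 to 0.9662). The label of the tissue was borne out by its defining genes. Calca, which encodes the pain peptide CGRP, was at 255 ± 29.3 TPM in vincristine and 274 ± 30.4 TPM in cyclophosphamide (SD, n = 3 each), and the sodium channel gene Scn10a was at 261 ± 23.2 TPM in vincristine and 275 ± 29.3 TPM in cyclophosphamide. The first cyclophosphamide library stood apart from the other 5 in carried-over muscle, with skeletal muscle genes summing to 114 TPM against 304 to 1306 TPM in the others, and the main counts are also given without it. All 37 mitochondrial genes, and 25 of the 841 genes in the lists used below, among them Irf1, S100a8 and S100a9, were listed at 0 in every library.

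Of 25434 genes tested in limma, 0 differed between vincristine and cyclophosphamide at an adjusted p under 0.05, which is 0% of them, and the smallest adjusted p was 0.634. At an unadjusted p under 0.05, 1096 genes (4.31%) were higher in vincristine and 191 (0.751%) were lower. The higher genes thus made up 85.2% of these, a share that was 56.2% after median-ratio scaling (742 higher, 579 lower) and 70.8% after scaling to the protein-coding total (935 higher, 386 lower). By mean alone 66.3% of all genes were higher in vincristine. The groups did not overlap for 1976 genes higher in vincristine (7.77%) and 375 lower (1.47%). With no filter on low values limma called 1 gene, the predicted gene Gm13230 (log2 fold change 0.37 ± 0.055, adjusted p = 0.0384). No gene below therefore passed the test, and each difference is given as a value with its error. Of 43 lists of cell types and responses, 22 held at least 1 member at an unadjusted p under 0.05 and 21 held none. Over the 784 distinct members tested, 75 were higher at that level and 5 were lower.

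Genes induced by interferon were higher in vincristine than in cyclophosphamide. All 32 members of the list had a higher mean in vincristine (31 of 32 after median-ratio scaling), against 66.3% of all genes. At an unadjusted p under 0.05, 24 of 32 were higher against 4.31% of all genes, and 0 were lower. Without cyclophosphamide replicate 1 that count was 12, without vincristine replicate 1 it was 15 and without vincristine replicate 3 it was 14. The groups did not overlap for 21 of the 32, against 7.77% of all genes, and the median log2 fold change was 0.52, against 0.064 over all genes. In each of the 32 genes the highest of the 6 libraries was a vincristine library and the lowest a cyclophosphamide library. The share of all genes with this pattern was not computed. The 32 genes were read in the same 6 libraries and are not separate replicates. The promoters of these genes are known for the response element, whose core reads GAAA, any 2 bases, GAAA. In RefSeq promoter windows of GRCm38.p6 (250 bases before to 50 after each start), searched on both strands and counting overlapping matches, these letters stood in 12 of the 21 interferon-induced genes that had an entry (57.1%), in 13 of 26 genes of the interferon gamma and MHC class I list , and in 3.99% of all 27025 genes. The share was 11.8% of 17 macrophage genes and 3.12% of 32 cell division genes. Below are the windows of 6 members of the first 2 lists, those of smallest p whose match lies before the start, 5′ to 3′ on the strand of the gene, with the matching letters in capitals. They were picked for having a match, and they show where it stands relative to the start. The windows of Tap1 and H2-Q6 hold no match, nor does the window of another Gbp3 start (chr3:142560106-142560405). Where the capitals read TTTC, the match is on the opposite strand. A match describes the letters and is not a measured binding site. Zbp1 and Mx2 have no window in the table.

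Isg15 (chr4:156200769-156201068, minus strand, 3 matches): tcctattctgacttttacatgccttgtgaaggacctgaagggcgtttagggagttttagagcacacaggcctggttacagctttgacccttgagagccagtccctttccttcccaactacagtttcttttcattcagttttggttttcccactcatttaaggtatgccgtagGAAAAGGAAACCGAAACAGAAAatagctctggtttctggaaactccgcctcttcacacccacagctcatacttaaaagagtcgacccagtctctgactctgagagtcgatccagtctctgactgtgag
Irgm1 (chr11:48871371-48871670, minus strand, 2 matches): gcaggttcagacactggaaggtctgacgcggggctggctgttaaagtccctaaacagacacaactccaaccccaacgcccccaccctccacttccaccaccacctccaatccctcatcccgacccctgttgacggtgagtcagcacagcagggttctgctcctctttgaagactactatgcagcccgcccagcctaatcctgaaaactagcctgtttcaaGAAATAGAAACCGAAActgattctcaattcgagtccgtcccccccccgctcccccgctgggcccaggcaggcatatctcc
Gbp3 (chr3:142559794-142560093, plus strand, 2 matches): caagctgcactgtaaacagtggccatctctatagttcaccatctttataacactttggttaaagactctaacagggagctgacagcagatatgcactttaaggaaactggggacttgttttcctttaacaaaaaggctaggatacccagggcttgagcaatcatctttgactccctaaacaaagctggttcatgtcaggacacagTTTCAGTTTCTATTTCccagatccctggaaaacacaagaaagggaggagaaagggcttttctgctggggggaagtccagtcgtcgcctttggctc
Bst2 (chr8:71537423-71537722, minus strand, 2 matches): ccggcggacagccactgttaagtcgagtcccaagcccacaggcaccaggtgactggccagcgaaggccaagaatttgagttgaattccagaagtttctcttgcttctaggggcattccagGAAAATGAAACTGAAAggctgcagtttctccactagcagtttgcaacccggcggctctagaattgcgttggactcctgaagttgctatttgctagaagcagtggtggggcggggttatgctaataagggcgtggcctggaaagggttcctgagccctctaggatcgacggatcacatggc
Ifit3b (chr19:34607707-34608006, plus strand, 2 matches): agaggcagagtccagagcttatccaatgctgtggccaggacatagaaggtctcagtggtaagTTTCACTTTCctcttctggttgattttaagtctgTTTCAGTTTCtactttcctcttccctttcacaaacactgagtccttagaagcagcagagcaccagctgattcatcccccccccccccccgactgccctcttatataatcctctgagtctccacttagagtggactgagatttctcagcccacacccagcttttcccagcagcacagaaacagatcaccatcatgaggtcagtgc
Igtp (chr11:58199306-58199605, plus strand, 1 match): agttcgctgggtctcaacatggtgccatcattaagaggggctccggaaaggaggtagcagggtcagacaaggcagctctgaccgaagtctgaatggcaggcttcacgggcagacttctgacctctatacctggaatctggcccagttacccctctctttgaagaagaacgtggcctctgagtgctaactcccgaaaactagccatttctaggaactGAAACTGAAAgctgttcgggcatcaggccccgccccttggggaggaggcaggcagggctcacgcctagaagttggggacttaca

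In Isg15 the 3 matches overlap into a run of 22 bases that begins 78 bases before the start, and in Irgm1 a run of 16 bases begins 30 bases before it. In Gbp3 a run of 16 bases begins 45 bases before the start used for the printed window.

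Of the sensors of foreign or misplaced nucleic acid, Zbp1 differed most. Zbp1 (ENSMUSG00000027514.15, chr2:173048405-173060716 in the coordinates of the deposited table), which binds left-handed nucleic acid and can start necroptosis, was at 7.83, 3.14 and 6.61 TPM in vincristine and 0.596, 2.29 and 1.75 TPM in cyclophosphamide, with 7.48, 2.94 and 5.05 TPM in saline. The lowest vincristine library lay above the highest cyclophosphamide library, while the vincristine and saline libraries overlapped. The log2 fold change was 1.42 ± 0.34 (unadjusted p = 0.000346, adjusted p = 0.634). Dhx58 (chr11:100585710-100595097), which encodes LGP2, a regulator of the cytoplasmic RNA sensors, was at 10.6, 8.79 and 11.3 TPM in vincristine and 3.94, 7.49 and 5.49 TPM in cyclophosphamide (log2 fold change 0.79 ± 0.23, adjusted p = 0.775). The groups did not overlap here either, nor for the 2 sensors themselves. Ifih1, which encodes MDA5, had a log2 fold change of 0.46 ± 0.14, and Ddx58, which encodes RIG-I, one of 0.37 ± 0.12.

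Effector genes of the antiviral state showed the same direction with a wide range of sizes. Isg15 (ENSMUSG00000035692.8, chr4:156283912-156285253), a ubiquitin-like protein attached to other proteins in infected cells, was at 34.2, 23.2 and 31.7 TPM in vincristine and 11.2, 16.5 and 10.3 TPM in cyclophosphamide, with 23.2, 24.04 and 15.9 TPM in saline. Its log2 fold change was 1.18 ± 0.29 (unadjusted p = 0.000455, adjusted p = 0.723), and no vincristine library fell within the cyclophosphamide range. Mx2 (ENSMUSG00000023341.17, chr16:97336508-97362100), a dynamin-like GTPase that blocks viruses, was at 15.2, 11.99 and 11.7 TPM in vincristine and 6.27, 5.81 and 8.90 TPM in cyclophosphamide, with 7.30, 10.3 and 7.95 TPM in saline. Here the vincristine libraries lay above all cyclophosphamide and all saline libraries, with a log2 fold change of 0.82 ± 0.20 against cyclophosphamide (adjusted p = 0.634) and of 0.56 for vincristine minus saline (adjusted p = 1). Mx2 was the only member of the 32 whose vincristine libraries lay above all saline libraries. Bst2 (chr8:71986899-71990100), the tetherin that holds budding virus at the cell surface, was at 32.8, 26.9 and 34.0 TPM in vincristine and 19.7, 23.7 and 21.6 TPM in cyclophosphamide (log2 fold change 0.51 ± 0.16, adjusted p = 0.877). Ifit3b, one of the RNA-binding IFIT proteins, had a log2 fold change of 0.80 ± 0.26, and Oas2, a synthetase that activates RNase L, one of 0.83 ± 0.33. Genes at the other end of the list hardly differed. Ifi27 was at 178 ± 17 TPM in vincristine and 173 ± 17.5 TPM in cyclophosphamide (SD, n = 3 each), a log2 fold change of 0.04 ± 0.09. Cmpk2 and Rsad2, whose products act on nucleotides, had log2 fold changes of 0.16 ± 0.13 and 0.35 ± 0.28. Mx1 and Mx2, Ifit3 and Ifit3b, and the Oas genes are close copies, and whether reads were shared between them was not tested.

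Regulators of the response were also among the list's members. Irf7, which amplifies interferon production, had a log2 fold change of 0.55 ± 0.29 with groups that did not overlap. Usp18, which removes ISG15 and damps the receptor, was at 17.1, 8.44 and 12.8 TPM in vincristine and 5.96, 9.48 and 5.75 TPM in cyclophosphamide, and its groups overlapped (log2 fold change 0.75 ± 0.31).

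**Figure D1:**
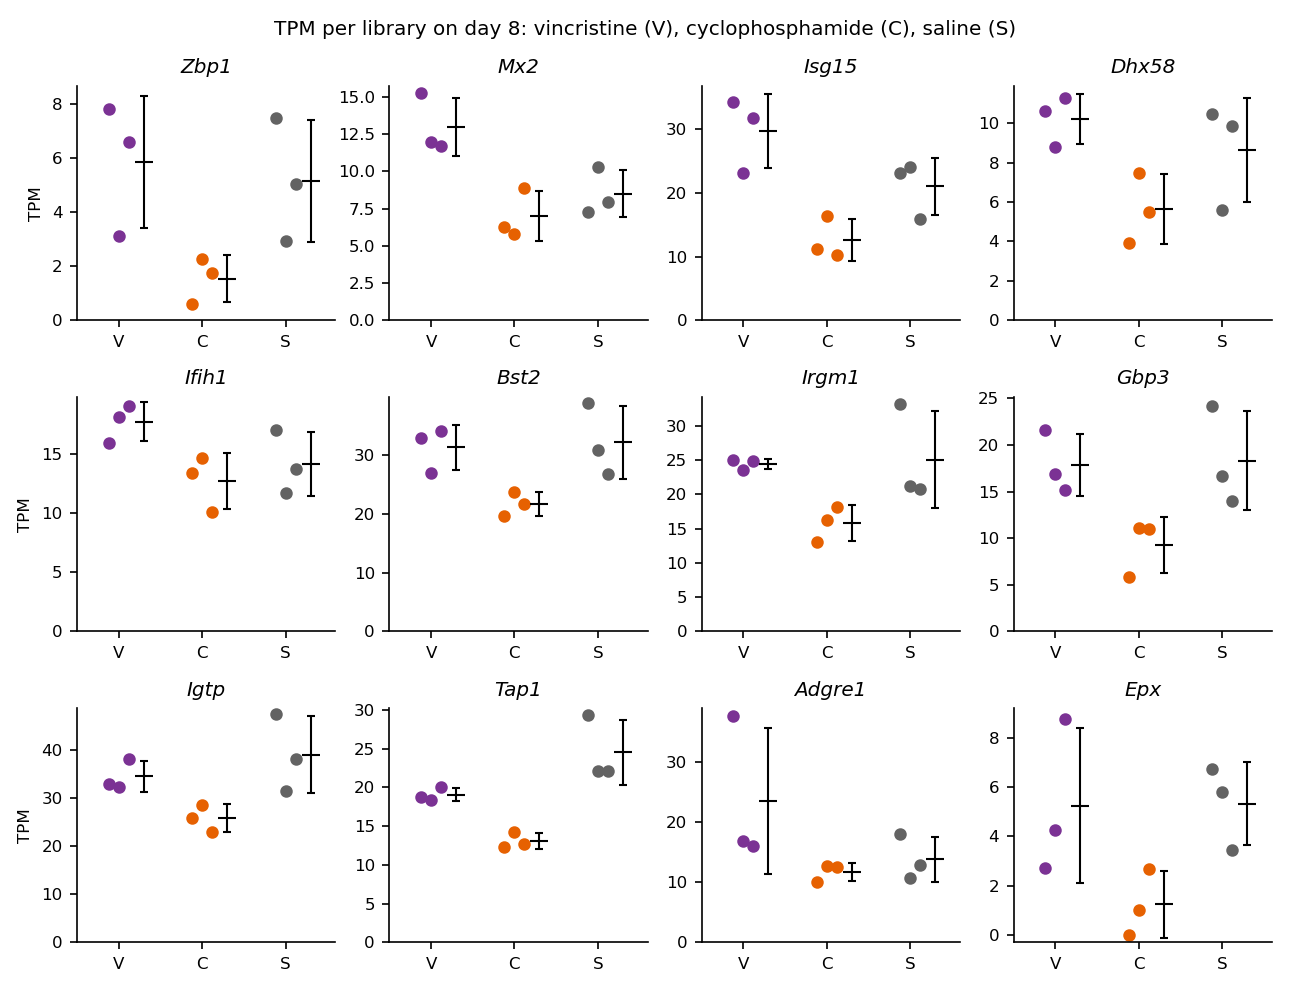
TPM of 12 genes in each of the 3 libraries of vincristine (V), cyclophosphamide (C) and saline (S) on day 8, with a bar for the mean and SD. For all 12 genes, Epx included, the 3 vincristine libraries lie above the 3 cyclophosphamide libraries, against 7.77% of all genes. The genes were picked with their values known, and the rule that named Zbp1, Mx2, Isg15 and Irgm1 asks for groups without overlap. The separation shown thus follows in part from the choice of genes.

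The immunity-related GTPases and the genes of antigen presentation on MHC class I were also higher in vincristine. Of 33 genes in the list, 32 were tested and all 32 were higher by mean (30 of 32 after median-ratio scaling), against 66.3% of all genes. Of these 15 were at an unadjusted p under 0.05, against 4.31% of all genes, and the groups did not overlap for 19, against 7.77%. The median log2 fold change was 0.41. Irgm1 (ENSMUSG00000046879.8, chr11:48752795-48762510), a GTPase that controls autophagy and the other members of its family, was at 24.9, 23.5 and 24.8 TPM in vincristine and 13.1, 16.2 and 18.2 TPM in cyclophosphamide, with 33.2, 21.1 and 20.7 TPM in saline. The vincristine values were close together and above every cyclophosphamide value (log2 fold change 0.61 ± 0.16, adjusted p = 0.775). Gbp3 (ENSMUSG00000028268.15, chr3:142265787-142278970), a guanylate-binding protein, was at 21.6, 16.9 and 15.2 TPM in vincristine and 5.81, 11.1 and 10.98 TPM in cyclophosphamide, with 24.2, 16.7 and 14.01 TPM in saline (log2 fold change 0.91 ± 0.24, adjusted p = 0.775). Vincristine and saline overlapped for this gene too. Of its relatives, Gbp6 had a log2 fold change of 0.85 ± 0.28, Gbp2 one of 0.59 ± 0.20 and Igtp one of 0.41 ± 0.13, each with groups that did not overlap. Tap1 (chr17:34406527-34416199), which carries peptides into the endoplasmic reticulum for loading, was at 18.7, 18.4 and 20.02 TPM in vincristine and 12.3, 14.2 and 12.7 TPM in cyclophosphamide, with 29.4, 22.1 and 22.1 TPM in saline. For Tap1 the vincristine libraries lay above all those of cyclophosphamide and below all those of saline (log2 fold change 0.52 ± 0.17, adjusted p = 0.886). The most abundant genes of the list showed small differences, with log2 fold changes of 0.07 ± 0.12 for B2m, the light chain of MHC class I, 0.05 ± 0.10 for H2-D1 and 0.16 ± 0.09 for H2-K1. The Gbp, Tgtp and H2-Q genes are families of close copies, and whether their reads were shared was not tested.

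Set beside saline, both lists lay differently. These comparisons share the same 3 saline libraries, so their values are given side by side only. Of all genes 54.7% had a higher and 44.3% a lower mean in vincristine than in saline, and 61.0% a lower mean in cyclophosphamide than in saline. At an unadjusted p under 0.05, 2.04% of all genes were higher and 1.41% lower in vincristine, and 1.19% were higher and 4.57% lower in cyclophosphamide. Groups that did not overlap were found for 3.46% of all genes higher and 2.72% lower in vincristine and for 2.24% higher and 7.25% lower in cyclophosphamide. For interferon-induced genes the median log2 fold change was 0.19 in vincristine minus saline and -0.31 in cyclophosphamide minus saline. In vincristine 28 of 32 genes were higher than in saline, 4 of them at an unadjusted p under 0.05, and in cyclophosphamide 31 of 32 were lower than in saline, 10 of them at that level. Groups did not overlap for 1 of the 32 higher in vincristine, Mx2, against 3.46% of all genes. In cyclophosphamide this held for 6 lower genes, against 7.25%. For the GTPases and MHC class I genes the medians were -0.067 in vincristine minus saline and -0.58 in cyclophosphamide minus saline. In vincristine 0 of 32 passed that level in either direction, and in cyclophosphamide all 32 were lower, 18 at that level and 22 with groups that did not overlap. Tap1 had an adjusted p of 0.171 in cyclophosphamide minus saline and was called, at 0.0286, where the model was fitted to the day 8 libraries alone. Among all genes limma called 0 in vincristine against saline, with 518 higher and 358 lower at an unadjusted p under 0.05, and 2 in cyclophosphamide against saline (0.00786%), the pseudogenes Gm13340 and Gm21104.

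**Figure D2:**
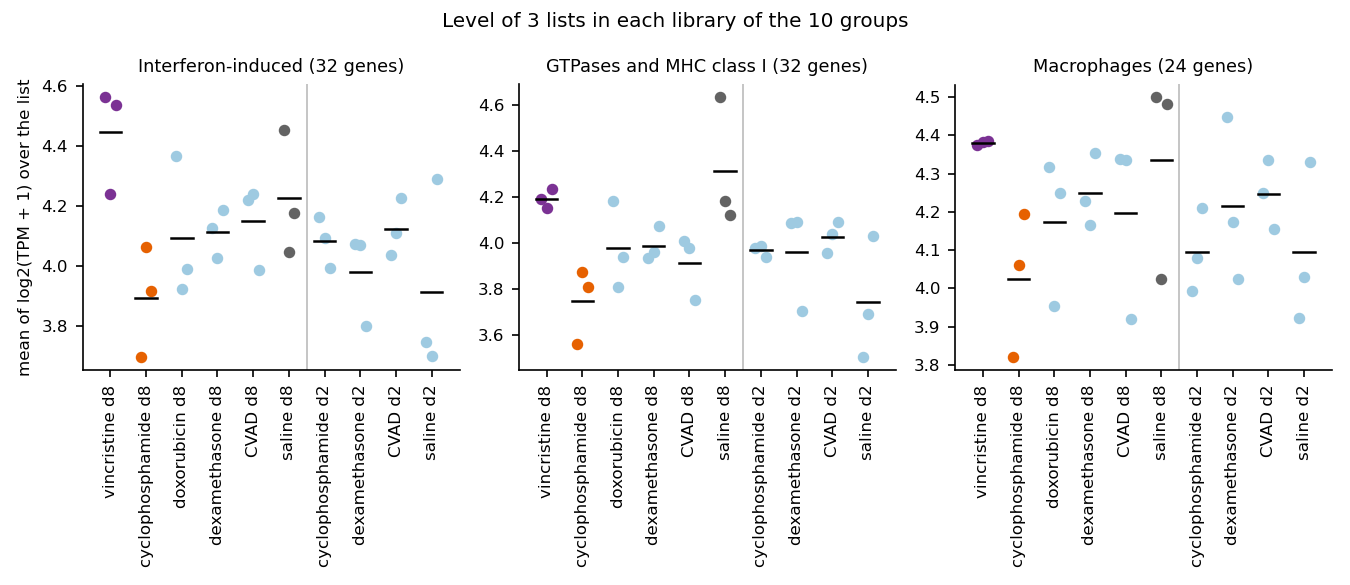
Mean log2(TPM + 1) over the members of 3 lists in each library of the 10 groups, day 8 left of the line and day 2 right of it, with a bar for the group mean. For interferon-induced genes vincristine on day 8 has the highest group mean, 4.45, and cyclophosphamide on day 8 the lowest, 3.89.

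Across the series the 2 groups stood at opposite ends for interferon-induced genes. The mean level of the list was 4.56, 4.24 and 4.53 on the log2(TPM + 1) scale in the vincristine libraries and 3.70, 4.06 and 3.92 in the cyclophosphamide libraries, with 4.45, 4.05 and 4.18 in saline on day 8. The vincristine mean of 4.45 ± 0.18 was the highest of the 10 groups and the cyclophosphamide mean of 3.89 ± 0.19 the lowest (SD, n = 3 each). Their nearest neighbours did not differ from them beyond the spread. Saline on day 8 stood at 4.23 ± 0.21, next below vincristine, and saline on day 2 at 3.91 ± 0.33, next above cyclophosphamide on day 8. The saline groups of the 2 days thus spanned much of the range between the drugs, and cyclophosphamide on day 2 stood at 4.08 ± 0.09. For the GTPases and MHC class I genes vincristine, at 4.19 ± 0.04, came below saline on day 8, at 4.31 ± 0.28, and cyclophosphamide, at 3.75 ± 0.17, lay level with saline on day 2, at 3.74 ± 0.27.

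The first cyclophosphamide library weighed on these counts. It was the lowest of the 6 libraries for 19 of the 32 interferon-induced genes, for 25 of the 32 GTPases and MHC class I genes and for 18 of the 24 macrophage genes. It was also the lowest for 18 of 20 fibroblast and collagen genes and 14 of 18 endothelial genes. The share of all genes for which it was the lowest was not computed. Without it, 12 interferon-induced genes, 10 GTPases and MHC class I genes and 2 macrophage genes were higher at an unadjusted p under 0.05, against 3.09% of all genes, and the medians were 0.39, 0.35 and 0.27. The interferon-induced count was 16 with library quality weights. Among the vincristine libraries the third was the highest of the 6 for 16 of the 32 interferon-induced genes. The same held for 20 of the 32 GTPases and MHC class I genes and 9 of the 24 macrophage genes. It was also the highest for 17 of 20 genes of cholesterol synthesis and uptake and 17 of 27 ribosomal protein genes. The share of all genes for which it was the highest was not computed.

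Genes of macrophages, which live among the sensory neurons and multiply there after nerve injury, were higher in vincristine as well. Of 24 members 23 were higher by mean (22 after median-ratio scaling), against 66.3% of all genes. Of these 8 were at an unadjusted p under 0.05, against 4.31% of all genes, and 10 had groups that did not overlap, against 7.77%. The median log2 fold change was 0.35, and the count of 8 was 2 without cyclophosphamide replicate 1. Adgre1 (chr17:57665691-57790527), the F4/80 antigen, was at 37.6, 16.9 and 16.1 TPM in vincristine and 10.02, 12.7 and 12.6 TPM in cyclophosphamide, with 17.99, 10.7 and 12.9 TPM in saline. The first vincristine library stood well above the rest, and the other 2 were still above all cyclophosphamide libraries (log2 fold change 0.85 ± 0.23, adjusted p = 0.775). The complement genes C1qa, C1qb and C1qc were close to each other, with log2 fold changes of 0.47 ± 0.16, 0.48 ± 0.15 and 0.47 ± 0.15 and groups that did not overlap. C1qa was at 54.2, 51.0 and 53.9 TPM in vincristine and 27.1, 46.2 and 43.9 TPM in cyclophosphamide, with 52.7, 37.1 and 52.8 TPM in saline. Ctss, the lysosomal protease cathepsin S, had a log2 fold change of 0.48 ± 0.18 and Cx3cr1, the fractalkine receptor, one of 0.44 ± 0.21. Other defining genes of the lineage differed little. Csf1r, the receptor for its growth factor, was at 35.3 ± 4.67 TPM in vincristine and 31.8 ± 3.06 TPM in cyclophosphamide, Tyrobp was at 31.8 ± 6.996 TPM in vincristine and 31.2 ± 5.73 TPM in cyclophosphamide, and Fcgr3 was at 16.5 ± 4.89 TPM in vincristine and 16.3 ± 2.13 TPM in cyclophosphamide (SD, n = 3 each).

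The summed level of the 24 macrophage genes was 730, 709 and 763 TPM in vincristine and 495, 601 and 677 TPM in cyclophosphamide, with 810, 686 and 765 TPM in saline. Between the drugs, the macrophage sum and the interferon-induced genes were both higher in vincristine. Against saline the macrophage sums of vincristine overlapped, and so did its mean levels of the interferon-induced list. Those levels ran from 4.24 to 4.56 in vincristine and from 4.05 to 4.45 in saline, with group means of 4.45 and 4.23. On the same scale the group means of the macrophage list were 4.38 in vincristine and 4.33 in saline. The part of macrophages in the interferon difference was not tested. Fewer cells of a type and less RNA per cell cannot be told apart in these bulk libraries. Innate receptors followed, with 19 of 20 higher, against 66.3% of all genes, and a median of 0.35. Of these 2 were at an unadjusted p under 0.05, against 4.31% of all genes. The genes of MHC class II presentation were all higher, 8 of 8, with a median of 0.38, and 0 passed that level. H2-Ab1 was at 76.6, 80.3 and 71.6 TPM in vincristine and 43.2, 42.9 and 73.1 TPM in cyclophosphamide, so that the third cyclophosphamide library lay within the vincristine range.

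Eosinophil granule genes showed the largest median among immune lists, 1.44 over the 6 of 9 members that were tested. All 6 were higher in vincristine, against 66.3% of all genes. At an unadjusted p under 0.05 there were 5, against 4.31% of all genes, and the groups did not overlap for 3, against 7.77%. Siglecf, Ccr3 and Il5ra were below the filter. Epx, eosinophil peroxidase, was at 2.74, 4.25 and 8.77 TPM in vincristine and 0, 1.03 and 2.69 TPM in cyclophosphamide, with 6.75, 5.79 and 3.46 TPM in saline. Prg2, the major basic protein of the granule, was at 18.03, 28.7 and 46.0 TPM in vincristine and 3.95, 16.8 and 19.9 TPM in cyclophosphamide, with 46.6, 37.5 and 20.6 TPM in saline. The values ran widely inside every group, and the first cyclophosphamide library was the lowest for 5 of the 6 genes and at 0 for the close copies Ear1, Ear2 and Ear6. Against saline the medians were -0.20 in vincristine and -1.64 in cyclophosphamide. Without cyclophosphamide replicate 1 the median was 0.71 and 0 members passed an unadjusted p of 0.05, and without vincristine replicate 3 it was 1.15 with 0 members.

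**Figure D3:**
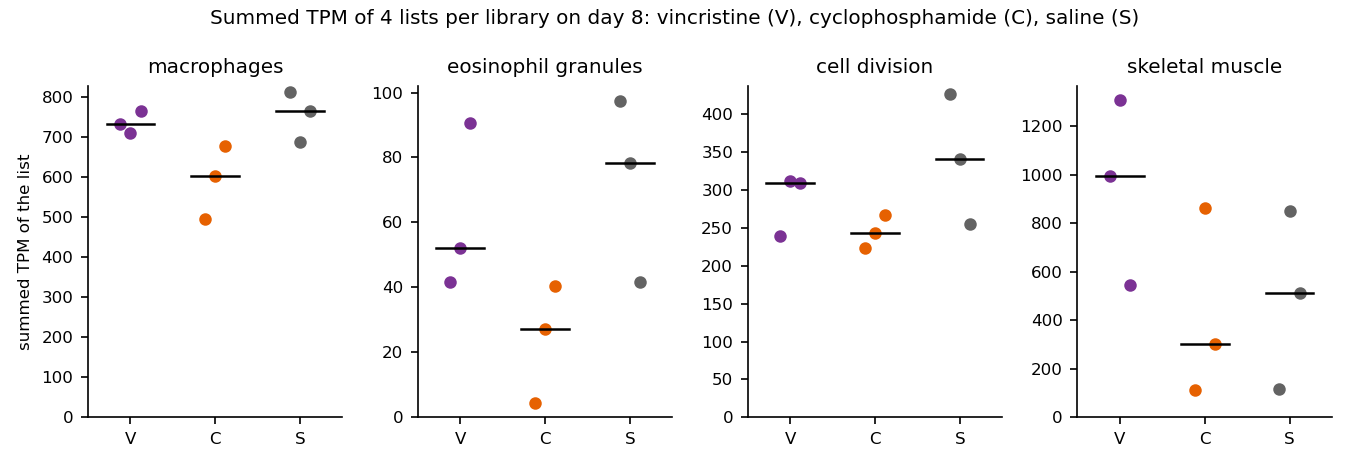
Summed TPM of the macrophage, eosinophil granule, cell division and skeletal muscle lists in each library of vincristine (V), cyclophosphamide (C) and saline (S) on day 8, with a bar for the median. The macrophage sums of the 2 drugs do not overlap (709 to 763 TPM in vincristine, 495 to 677 TPM in cyclophosphamide), while the muscle sums do.

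Tnf and Ccl12 were at low levels. Tnf, a cytokine that sensitises nociceptors, was listed at 2.26, 0.685 and 0.939 TPM in vincristine and at 0 in the 3 cyclophosphamide libraries, with 0, 0 and 1.22 TPM in saline. Ccl12, which attracts monocytes in the mouse, was listed at 7.28, 0 and 7.64 TPM in vincristine and at 0 in cyclophosphamide, with 5.11, 0 and 7.31 TPM in saline. Of the 17 cytokine and chemokine genes tested 15 were higher, against 66.3% of all genes. Tnf and Ccl12 were the 2 at an unadjusted p under 0.05, against 4.31% of all genes. Ccl5, of the T and NK cell list, was listed at 0.485, 3.14 and 2.27 TPM in vincristine and at 0 in cyclophosphamide, and 0 of the other 10 members tested passed that level.

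Granule genes of neutrophils did not separate the drugs. The 17 late granule genes had a median log2 fold change of 0.10 with 0 at an unadjusted p under 0.05, and the medians against saline were -0.67 in vincristine and -0.75 in cyclophosphamide. Ngp, a protein stored in neutrophil granules, was at 47.5, 54.8 and 99.1 TPM in vincristine and 45.9, 64.2 and 58.2 TPM in cyclophosphamide, with 87.1, 102 and 120 TPM in saline. Elane, neutrophil elastase, was at 2.64, 7.34 and 8.55 TPM in vincristine and 7.38, 11.6 and 9.69 TPM in cyclophosphamide, with 13.2, 19.2 and 27.1 TPM in saline. Both drug groups thus lay mostly below saline, and for Elane the log2 fold change between the drugs was -0.65 ± 0.40 (unadjusted p = 0.119). Of the 10 azurophil granule genes tested, only Srgn, the proteoglycan core serglycin that other blood cells also make, was higher at an unadjusted p under 0.05, against 4.31% of all genes. The B lineage list held 0 of 14 at that level (median 0.083) and the erythroid list 0 of 16 (median -0.038).

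Cell division genes mostly had a higher mean in vincristine, 35 of 38 (30 after median-ratio scaling), against 66.3% of all genes, with a median of 0.28. The groups did not overlap for 8, against 7.77% of all genes. At an unadjusted p under 0.05 there was 1 of 38, a share below the 4.31% of all genes. That count was 0 without vincristine replicate 3 and 3 without vincristine replicate 1. The gene was Cenpe, a kinesin that moves chromosomes to the middle of the spindle, at 2.09, 1.75 and 4.61 TPM in vincristine and 1.06, 1.39 and 1.46 TPM in cyclophosphamide, with 5.40, 2.46 and 2.26 TPM in saline. Mki67, a marker of dividing cells, was at 5.68, 9.81 and 12.3 TPM in vincristine and 5.78, 6.77 and 7.38 TPM in cyclophosphamide, with 19.1, 15.9 and 6.64 TPM in saline. The first vincristine library lay below every cyclophosphamide library for Mki67 (log2 fold change 0.38 ± 0.48). Against saline the medians of the list were -0.23 in vincristine and -0.64 in cyclophosphamide, with 35 and 37 of the 38 genes lower. Replication-dependent histones followed with 19 of 22 higher, 0 at that level and a median of 0.21. The third vincristine library was the highest of the 6 libraries for 17 of these 22 genes. Of 28 p53 targets 24 were higher by mean (22 after median-ratio scaling), against 66.3% of all genes. For 18 of these 28 the third vincristine library was the highest of the 6. Tnfrsf10b, a death receptor, and Gtse1 were at an unadjusted p under 0.05, 2 of 28 against 4.31% of all genes, and Cdkn1a, the cell cycle inhibitor p21, was at 87.0, 92.5 and 124 TPM in vincristine and 78.5, 91.2 and 103 TPM in cyclophosphamide, ranges that overlapped.

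**Figure D4:**
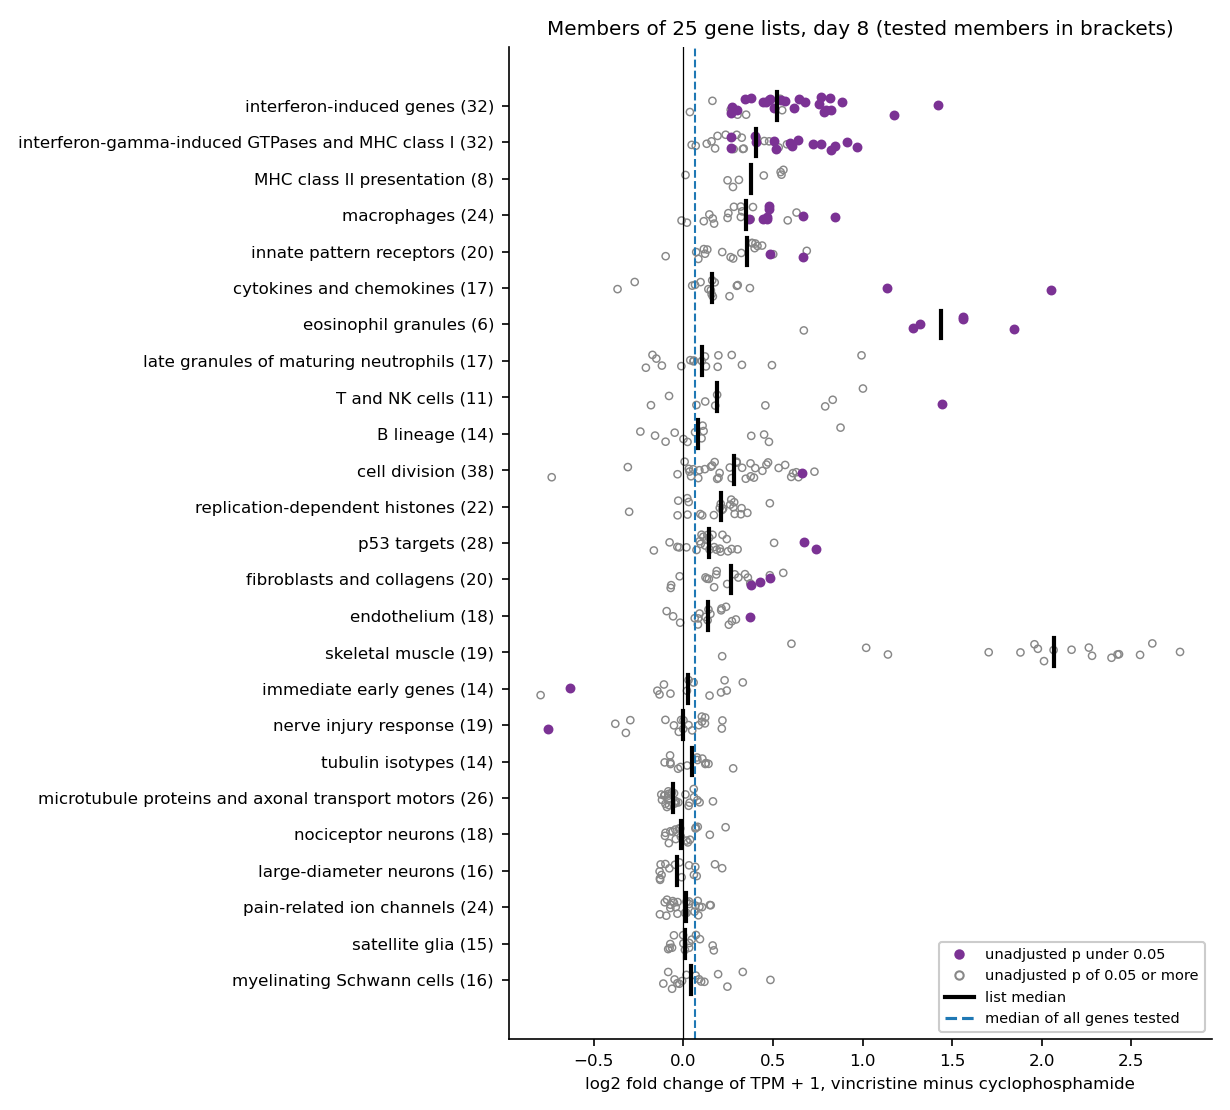
Log2 fold change of TPM + 1, vincristine minus cyclophosphamide, of the tested members of 25 lists, filled where the unadjusted p is under 0.05, with a bar for the median of the list and a dashed line for the median of all genes (0.064). The interferon-induced genes lie to the right of 0 in all 32 cases, and the neuronal and tubulin lists lie around 0.

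Vessel and matrix genes differed by smaller values. Of 20 fibroblast and collagen genes 17 were higher by mean, against 66.3% of all genes, with Pdgfra (log2 fold change 0.38 ± 0.18), Col6a3 (0.48 ± 0.23) and Postn (0.43 ± 0.21) at an unadjusted p under 0.05. These were 3 of 20, against 4.31% of all genes. Postn, the matrix protein periostin, was at 43.1, 50.3 and 45.0 TPM in vincristine and 28.5, 37.3 and 36.8 TPM in cyclophosphamide. It was the only 1 of the 20 whose groups did not overlap, against 7.77% of all genes. The first cyclophosphamide library was the lowest for 18 of these 20 genes, and without it 13 were higher, 0 at that level, and the median was 0.066 where it had been 0.27. Of 18 endothelial genes 15 were higher by mean and 1 was at an unadjusted p under 0.05, or 5.56%, near the 4.31% of all genes. That gene was Tie1, a receptor kinase of vessels, which was at 18.3, 21.1 and 21.7 TPM in vincristine and 15.4, 16.99 and 14.2 TPM in cyclophosphamide (log2 fold change 0.37 ± 0.13). The first cyclophosphamide library was the lowest for 14 of these 18 genes, and without it the median was 0.070 where it had been 0.14. Bone genes were higher by mean in 15 of 15 (13 after median-ratio scaling), against 66.3% of all genes. Ctsk, the collagenase of osteoclasts, and Mmp13 were at an unadjusted p under 0.05, 2 of 15 against 4.31% of all genes. Without the first cyclophosphamide library 0 were at that level. Ctsk is also made by macrophages and fibroblasts.

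Skeletal muscle genes, which mark muscle carried over at dissection, were higher in vincristine in 19 of 19 cases with a median of 2.07, yet 0 passed an unadjusted p of 0.05. Acta1, the actin of muscle fibres, was at 137, 150 and 98.2 TPM in vincristine and 2.01, 126 and 46.3 TPM in cyclophosphamide, with 2.54, 142 and 71.3 TPM in saline. The summed level of the 19 genes was 995, 1306 and 544 TPM in vincristine and 114, 864 and 304 TPM in cyclophosphamide, with 119, 852 and 514 TPM in saline. The muscle sum was lowest in the first cyclophosphamide library. Without cyclophosphamide replicate 2 the median of the list was 3.05 and 11 of the 19 genes passed that level. In that setting 1375 of all 25434 genes were higher at that level. With the muscle level as a covariate, 21 of 32 interferon-induced genes, 14 of 32 GTPases and MHC class I genes and 6 of 24 macrophage genes were higher in vincristine at an unadjusted p under 0.05. Their medians were 0.49, 0.36 and 0.33. Of all 25434 genes 914 were higher at that level in this setting, and the median was 0.069. The part of carried-over muscle in the differences was not tested.

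**Figure D5:**
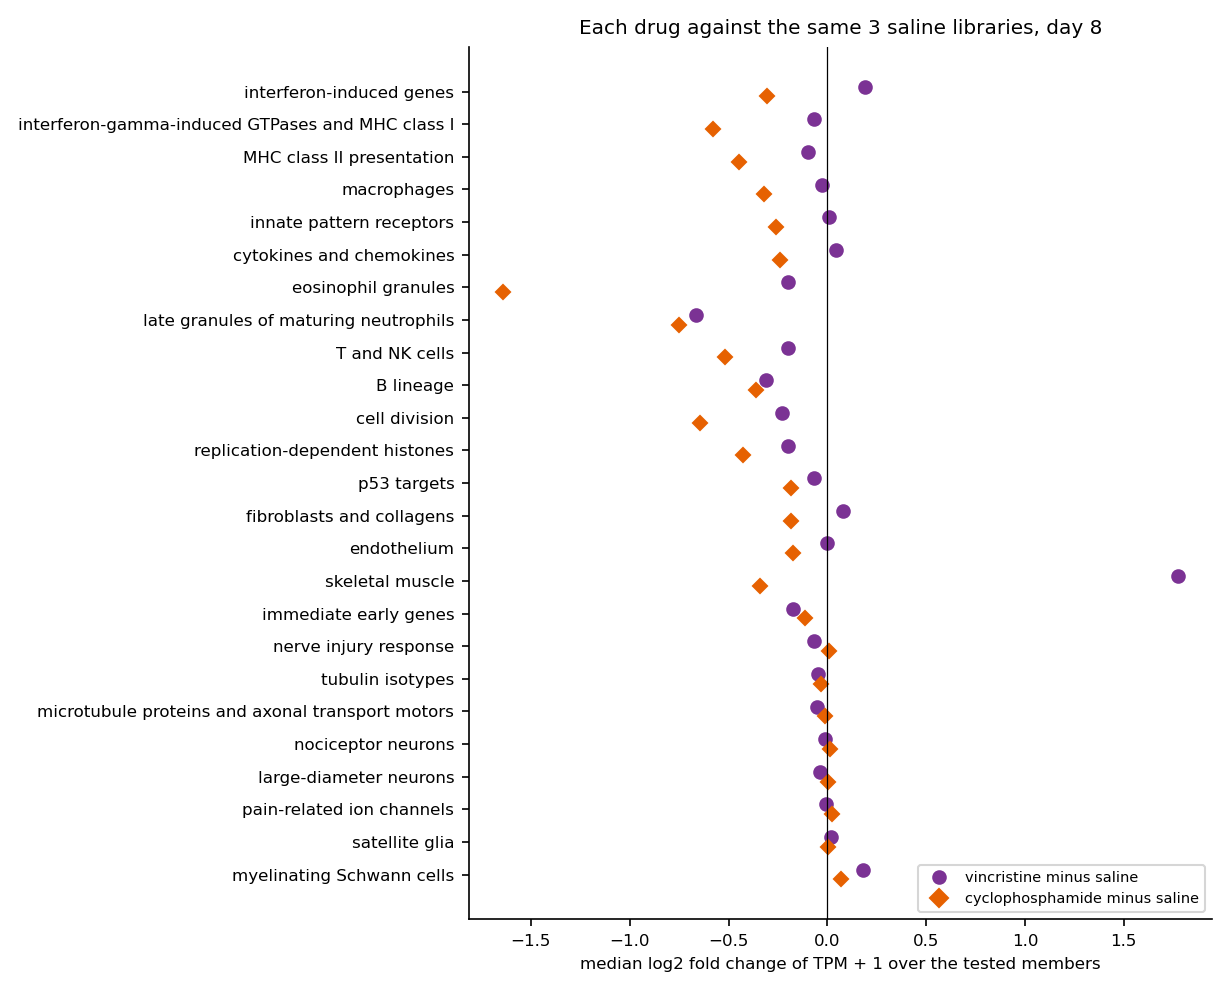
Median log2 fold change of 25 lists in vincristine minus saline (circles) and cyclophosphamide minus saline (diamonds), which share the 3 saline libraries. For interferon-induced genes the medians are 0.19 in vincristine and -0.31 in cyclophosphamide, and for late neutrophil granules they are -0.67 and -0.75.

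Genes of the sensory neurons, the cells that vincristine injures, did not separate the drugs. The nociceptor list held 0 of 18 members at an unadjusted p under 0.05 in either direction (median -0.016), the large-diameter neurons 0 of 16 (median -0.035) and the pain-related ion channels 0 of 24 (median 0.013). Single members ranged from -0.13 to 0.24 in these 3 lists, less than the median of the interferon-induced genes. Trpv1, the capsaicin receptor, was at 85.3, 87.4 and 111 TPM in vincristine and 89.4, 86.0 and 91.2 TPM in cyclophosphamide, and Nefh, the heavy neurofilament of large axons, was at 207, 189 and 219 TPM in vincristine and 229, 197 and 244 TPM in cyclophosphamide. Both overlapped, with log2 fold changes of 0.08 ± 0.13 and -0.12 ± 0.12. A p that misses the threshold does not show that the levels were equal.

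Tubulin genes, whose products vincristine binds, held 0 of 14 members at that level, with a median of 0.048. Tubb3, the neuronal beta-tubulin, was at 316, 291 and 354 TPM in vincristine and 360, 302 and 374 TPM in cyclophosphamide (log2 fold change -0.11 ± 0.11). Tuba1b and Tuba1c, alpha-tubulins that are close copies of Tuba1a, had groups that did not overlap, with Tuba1b at 930, 915 and 951 TPM in vincristine and 908, 834 and 823 TPM in cyclophosphamide (log2 fold change 0.13 ± 0.11, unadjusted p = 0.252). Whether reads were shared among these alpha-tubulins was not tested. The 26 genes of microtubule proteins and axonal motors had a median of -0.058, with 18 lower and 0 at an unadjusted p under 0.05 in either direction. Glial lists were as close to 0, at 0.008 for satellite glia and 0.042 for myelinating Schwann cells, each with 0 members at that level.

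Of all genes 32.7% had a lower mean in vincristine, and the 191 at an unadjusted p under 0.05 became 579 after median-ratio scaling. In the nerve injury list Gpr151 (log2 fold change -0.75 ± 0.33) was the single member of 19 at an unadjusted p under 0.05, against 0.751% of all genes lower at that level. The injury markers Atf3 (12.3, 11.6 and 13.7 TPM in vincristine, 12.7, 15.3 and 19.4 TPM in cyclophosphamide) and Gal (37.8, 38.5 and 54.8 TPM in vincristine, 43.1, 33.8 and 42.3 TPM in cyclophosphamide) overlapped. Egr3, an immediate early gene switched on by neuronal activity and growth factors, was at 7.33, 10.9 and 10.6 TPM in vincristine and 16.3, 19.6 and 11.1 TPM in cyclophosphamide, with 11.97, 14 and 12.4 TPM in saline. All 3 vincristine libraries lay below all cyclophosphamide and all saline libraries for Egr3 (log2 fold change -0.63 ± 0.22, unadjusted p = 0.00815, adjusted p = 0.905). The list of immediate early genes did not share this direction. Of its 14 members 8 were higher and 6 lower in vincristine, with a median of 0.024. The groups did not overlap for 1 in each direction, and 1 was lower at an unadjusted p under 0.05, against 0.751% of all genes. Ndufa4, a subunit of cytochrome oxidase, was at 111, 87.7 and 105 TPM in vincristine and 126, 113 and 143 TPM in cyclophosphamide (log2 fold change -0.33 ± 0.13), and of 23 respiratory chain genes tested it was the only one at that level, against 0.751% of all genes lower. Among heat shock chaperones 14 of 17 were lower (median -0.070), 0 at an unadjusted p under 0.05.

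Among all coding genes whose groups did not overlap, those of smallest p were mostly not in any list. Hexim2, an inhibitor of the transcription elongation factor P-TEFb, was at 17.8, 13.99 and 12.5 TPM in vincristine and 9.65, 8.53 and 5.498 TPM in cyclophosphamide, with 18.6, 12.9 and 10.5 TPM in saline (log2 fold change 0.84 ± 0.20, unadjusted p = 0.000234, adjusted p = 0.634). Dedd, a death effector domain protein, was at 47.2, 49.1 and 45.3 TPM in vincristine and 38.5, 35.1 and 26.9 TPM in cyclophosphamide (log2 fold change 0.50 ± 0.12). Pex5, the import receptor of peroxisomes, was at 57.6, 67.2 and 63.0 TPM in vincristine and 49.7, 49.5 and 49.2 TPM in cyclophosphamide (log2 fold change 0.33 ± 0.08). Gtf2f2, a subunit of the general factor TFIIF, had a log2 fold change of 0.47 ± 0.12 and Mrpl21, a protein of the mitochondrial ribosome, one of 0.45 ± 0.11. Of the 12 such genes 4 belong to the interferon lists, namely Zbp1, Mx2, Isg15 and Irgm1.

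In the other direction the 12 genes of smallest p had larger p-values, from 0.00641. Adra1a, an alpha-adrenergic receptor, was at 2.93, 2.12 and 2.20 TPM in vincristine and 3.71, 4.13 and 4.27 TPM in cyclophosphamide (log2 fold change -0.57 ± 0.19). Tafa2, a secreted protein of neurons, was at 43.6, 38.6 and 35.0 TPM in vincristine and 49.7, 47.6 and 46.0 TPM in cyclophosphamide (log2 fold change -0.29 ± 0.11). Rap1gap, which switches off the GTPase RAP1, was at 114, 105 and 118 TPM in vincristine and 128, 128 and 138 TPM in cyclophosphamide (log2 fold change -0.23 ± 0.09). Mrln, which encodes the muscle micropeptide myoregulin, Ctrl, which encodes a chymotrypsin-like protease, and Mogat1, an enzyme of fat synthesis, were listed at 0 in the 3 vincristine libraries. Their levels elsewhere were low. In cyclophosphamide Mrln was at 1.82, 1.21 and 4.15 TPM, Ctrl at 1.24, 1.60 and 2.07 TPM and Mogat1 at 0.992, 0.925 and 1.11 TPM. In saline these were at 0, 1.08 and 0 TPM for Mrln, 1.62, 1.80 and 1.07 TPM for Ctrl and 1.06, 0 and 2.28 TPM for Mogat1. Mrln was thus lower in vincristine, where 19 of 19 genes of the skeletal muscle list were higher.

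Genes of drug handling and of hormonal and daily rhythms completed the lists with single members. The first cyclophosphamide library was the lowest of the 6 for 12 of 25 genes of cyclophosphamide detoxification and drug transport. For 1 of the 25 the vincristine libraries lay above all those of cyclophosphamide, against 7.77% of all genes. At an unadjusted p under 0.05, 4 were higher in vincristine and 1 was lower, against 4.31% and 0.751% of all genes. The higher ones were the transporters Abcc10 and Abcc4, Cyp3a13 and Gsta3, and the lower one was the transporter Abcc3, at 2.34, 3.74 and 5.65 TPM in vincristine and 5.29, 4.75 and 6.16 TPM in cyclophosphamide. Abcc10, an exporter of vinca alkaloids in cultured cells, was at 17.2, 19.9 and 22.8 TPM in vincristine and 13.9, 16.7 and 17.3 TPM in cyclophosphamide, with groups that overlapped (log2 fold change 0.30 ± 0.12). Npas2, a partner of the clock protein BMAL1, was at 12.3, 13.4 and 16.7 TPM in vincristine and 5.45, 7.15 and 9.70 TPM in cyclophosphamide, with 15.3, 10.6 and 7.72 TPM in saline (log2 fold change 0.86 ± 0.26, adjusted p = 0.877), while 10 of the 15 clock genes tested were lower. The time of day of collection is not given in the labels. Of 24 glucocorticoid targets 20 were higher, against 66.3% of all genes. Angptl4 (0.61 ± 0.21) and Pdk4 (0.99 ± 0.47) were at an unadjusted p under 0.05, 2 of 24 against 4.31% of all genes. Muscle and fat also make both.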

How the data were processed

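Per the labels' protocols, rRNA was removed from 60 to 80 ng of total ganglion RNA and the libraries keep the strand. StringTie 2.2.1, STAR 2.7.10b and FastQC 0.12.1 stand in the submitters' processing notes, as do 2 builds, GRCm39 and mm10, with no role stated. The values of the deposited table are TPM per gene. Its coordinates differ from GRCm38, where 1485 of 52068 shared gene IDs have the same start, and are printed as deposited. The fold changes and p-values are not the authors'.

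All 30 columns were used, in 10 groups of 3 by drug and day. Of 56686 genes, the 25434 that reached 1 TPM in 3 or more libraries were tested, 15314 of them protein-coding. All libraries entered 1 linear model of log2(TPM + 1) in limma 3.58.1 (R 4.3.3), with group means as coefficients and a variance trend. This scale understates changes of low genes. Tests were 2-sided, with Benjamini-Hochberg adjusted p-values and a threshold of 0.05. A gene's groups do not overlap where all 3 libraries of a drug lie on the same side of the other 3. The smallest exact permutation p for 3 against 3 is 0.1.

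The comparison and its 43 lists (841 genes, 784 tested, 26 below the filter, 25 at 0 in every library, 6 not analysed) were chosen with earlier results of these data known, and lists are described by counts and medians without a test. Since fewer than 10 genes passed, the genes named are the 12 coding genes of smallest p in each direction whose groups do not overlap, leaving out predicted models, plus 10 fixed genes and, for each list described, its 4 members of smallest p. The text gives a part of these. Genes at the low end of a list, Irf7, Usp18, Oas2, C1q and other defining genes, Ngp and the list members at 0 were chosen after their values were seen. Promoter windows are from RefSeq (GRCm38.p6). Alternatives were median-ratio scaling, a pseudocount of 0.1, testing without a filter, day 8 or the 2 groups alone, library quality weights, coding genes alone and the omission of each library. Scaling to the protein-coding total and a muscle covariate were added after the data were seen. The pipeline was tested on simulated data. Figures were drawn with matplotlib 3.10.9. Values of some single genes are not reported here.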

Additional observations from a re-analysis of the deposited data

How the results depend on the processing

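The count of 0 genes called between vincristine and cyclophosphamide was also 0 with a pseudocount of 0.1, median-ratio scaling, day 8 libraries alone, the libraries of the 2 groups alone, library quality weights, coding genes alone, scaling to the protein-coding total and the muscle covariate. It was 1 with no filter, and 0 to 2 with 1 library left out (without cyclophosphamide replicate 2 these were the predicted genes Gm13913 and Gm11636). Genes higher in vincristine at an unadjusted p under 0.05 numbered 1096, or 1662 with no filter and 688 among coding genes alone, and 714 to 1814 with 1 library left out. Those lower numbered 191, or 489 with no filter, 579 after median-ratio scaling, 51 among coding genes alone and 386 after scaling to the protein-coding total, and 164 to 237 with 1 library left out. With 1 library left out, 12 to 25 interferon-induced genes, 10 to 16 GTPases and MHC class I genes and 2 to 10 macrophage genes were higher at that level. Against saline, vincristine had 2 called genes with no filter and 0 to 7 with 1 library left out. Cyclophosphamide had 1 with a pseudocount of 0.1, 5 with no filter, 0 in the 2 groups alone, 0 among coding genes alone and 0 to 4 with 1 library left out. The cause of these shifts was not tested. Without vincristine replicate 3, 3 small differences changed sign: Gal was at -0.049 (range with 1 library left out -0.049 to 0.213), Cdkn1a at -0.010 (-0.010 to 0.243) and Trpv1 at -0.041 (-0.041 to 0.149). No paired analysis was possible because the labels give the libraries no replicate numbers. The depth is unknown, so counting error was not computed, and 3 libraries a group limit the precision.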
